A study of Mus musculus with 6 samples.

Results

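The Cyp4 fatty acid hydroxylases were followed in livers of 6 mice, as 8 genes chosen by symbol from 12393 genes measured on an expression array: Cyp4a12a, Cyp4a14 and Cyp4a31, Cyp4b1, Cyp4f13, Cyp4f14 and Cyp4f15, and Cyp4v3. Each gene was read from the probe set, a group of short probes for 1 transcript, that had the highest mean over the 6 arrays among those annotated to that gene alone. All 6 mice were 1 month old and, by their labels, Ppara knockouts of C57 background. In 3 of them an adenoviral vector had been injected and the arrays are labelled TFEB-injected, for the transcription factor that the series title describes as overexpressed in liver; the other 3 mice were not injected. The labels give neither the promoter nor the species of the TFEB construct nor the time after injection, and no mouse received a vector without TFEB, so effects of the injection, the virus and TFEB cannot be told apart. The question is which Cyp4 transcripts were altered by the injection in mice without the receptor best known for controlling them.

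Enzymes of the Cyp4 family are cytochrome P450 proteins of the endoplasmic reticulum that add a hydroxyl group at or near the methyl end of fatty acids. The hydroxyl is then oxidised by alcohol and aldehyde dehydrogenases to give a dicarboxylic acid, which peroxisomes shorten; this route is called omega oxidation. Cyp4a genes are textbook targets of the nuclear receptor PPAR-alpha in liver, whereas several Cyp4f enzymes are known for inactivating leukotrienes and other eicosanoids.

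Array-to-array correlations over the measured genes were 0.998 to 0.999 among not-injected livers, 0.995 to 0.998 among injected livers and 0.989 to 0.993 across the groups, and 3 arrays a group limit the precision. Hepatocyte markers were bright in both groups, with Alb, for albumin, at 15.02 ± 0.01 and 14.95 ± 0.01 (log2 expression, SD, n = 3). The Tfeb probe set gave 7.55 ± 0.07 in not-injected and 7.59 ± 0.12 in injected livers (adjusted p = 0.777), and the Ppara probe set 8.95 ± 0.07 and 9.08 ± 0.04 (adjusted p = 0.149). Neither value tests the labels, which leave out the deleted part of Ppara and the origin of the TFEB sequence. All values here are log2 expression levels as deposited, changes are injected minus not-injected, and "rose" and "fell" mean an adjusted p under 0.05 in limma with Benjamini-Hochberg adjustment over all 12393 genes. In bulk liver RNA, fewer cells of a type and less RNA per cell cannot be told apart.

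Of the 8 members, 2 rose (Cyp4a14 and Cyp4a12a), 2 fell (Cyp4f14 and Cyp4f15) and 4 did not pass. Over all genes 9.99% rose and 7.92% fell, 17.9% in either direction. An unadjusted p under 0.05 in limma was found for 3894 of the 12393 genes. These values are the background for the counts of every gene list below. The groups did not overlap for 6 of the 8 members, 2 higher and 4 lower, where 37.1% of all genes had groups that did not overlap (18.2% higher, 18.9% lower). The median change of the members was -0.07, against -0.01 over all genes, with a range from -0.75 to 4.27. The changes therefore went both ways, and the subfamilies lay on different sides of 0.

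**Figure D1:**
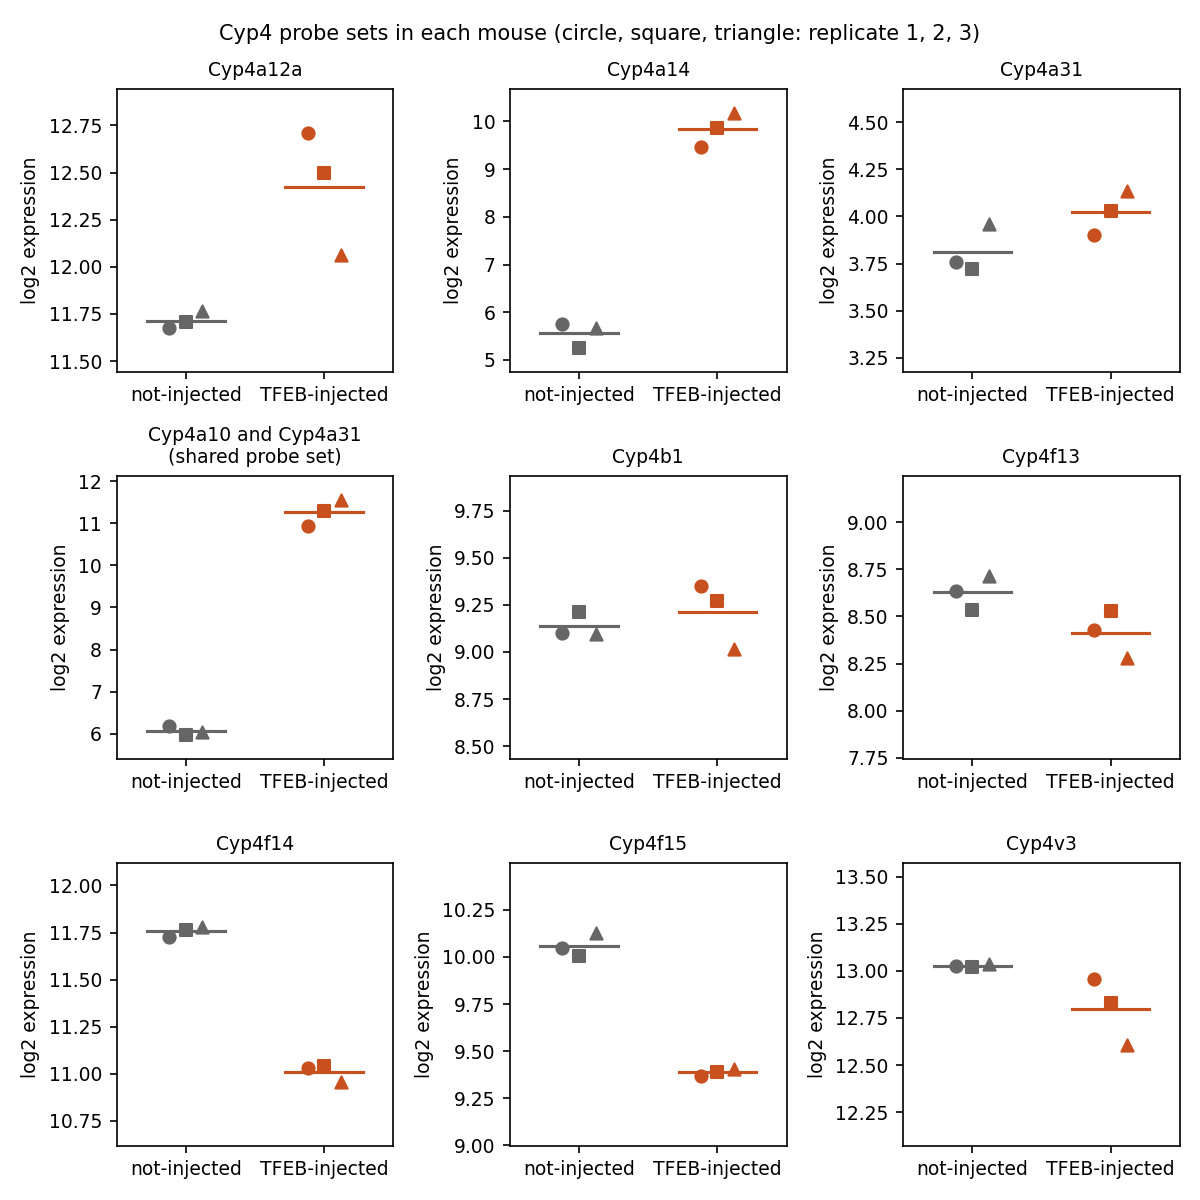
Log2 expression of the 8 Cyp4 genes and of the probe set shared by Cyp4a10 and Cyp4a31 in each mouse (points; 3 not-injected in grey, 3 TFEB-injected in orange) with group means as bars; each panel has its own scale that does not start at 0. Cyp4a14 moved from 5.56 to 9.83 and the shared probe set from 6.07 to 11.26, while Cyp4f14 and Cyp4f15 lay lower in all 3 injected mice.

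Cyp4a14, for a fatty acid hydroxylase typical of the PPAR-alpha response, was at 5.75, 5.25 and 5.68 in not-injected replicates 1, 2 and 3 and at 9.45, 9.86 and 10.19 in injected replicates 1, 2 and 3. Every injected liver was more than 3 log2 units above every not-injected one. The change was 4.27 ± 0.20 (SE), or 19.4-fold, with an adjusted p of 4.59e-05, and it ranked 3 among the rises of the 12393 genes. Whether the not-injected level stood above background was not tested, and the fold is one of deposited values.

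A further probe set is annotated to Cyp4a31 and Cyp4a10 together, 2 close relatives that it cannot tell apart, and so it stands outside the count above. It read 6.19, 5.97 and 6.05 in the not-injected and 10.93, 11.29 and 11.56 in the injected livers. The groups were far apart, and each injected mouse lay 29.0, 37.3 or 45.0 times above the not-injected mean. The change of 5.19 ± 0.15 (SE), or 36.5-fold, had an adjusted p of 8.10e-06 in limma over all 22626 probe sets that are not controls, of which 15% passed (8.05% higher, 6.91% lower), and it was rank 1 among the rises of those probe sets.

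The probe set annotated to Cyp4a31 alone read low in every liver. It gave 3.76, 3.72 and 3.96 in not-injected and 3.90, 4.03 and 4.13 in injected livers, and the groups overlapped. The change was 0.21 ± 0.08 (SE; adjusted p = 0.140). The lowest value anywhere in the table was 3.08, so this probe set sat near the bottom of the scale, and whether it can report Cyp4a31 in liver was not tested. Cyp4a10 had no probe set of its own, and these arrays do not say how the rise of the shared set divides between Cyp4a10 and Cyp4a31.

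Cyp4a12a, for the male-typical arachidonic acid omega-hydroxylase of mouse liver and kidney, was at 11.68, 11.70 and 11.76 in not-injected and 12.71, 12.50 and 12.06 in injected livers. The groups did not overlap, but the injected mice spread over a range wider than that of the controls (SD 0.33 against 0.05). The gene rose by 0.71 ± 0.15 (SE), or 1.63-fold (adjusted p = 0.0159), and omitting not-injected replicate 1, not-injected replicate 2 or injected replicate 2 ended the call (adjusted p = 0.0606, 0.0606 and 0.0647), which leaves 1 called rise among the members. Cyp4a12b, a near-identical neighbour, has no probe set of its own here, so its share in this signal cannot be told apart.

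**Figure D2:**
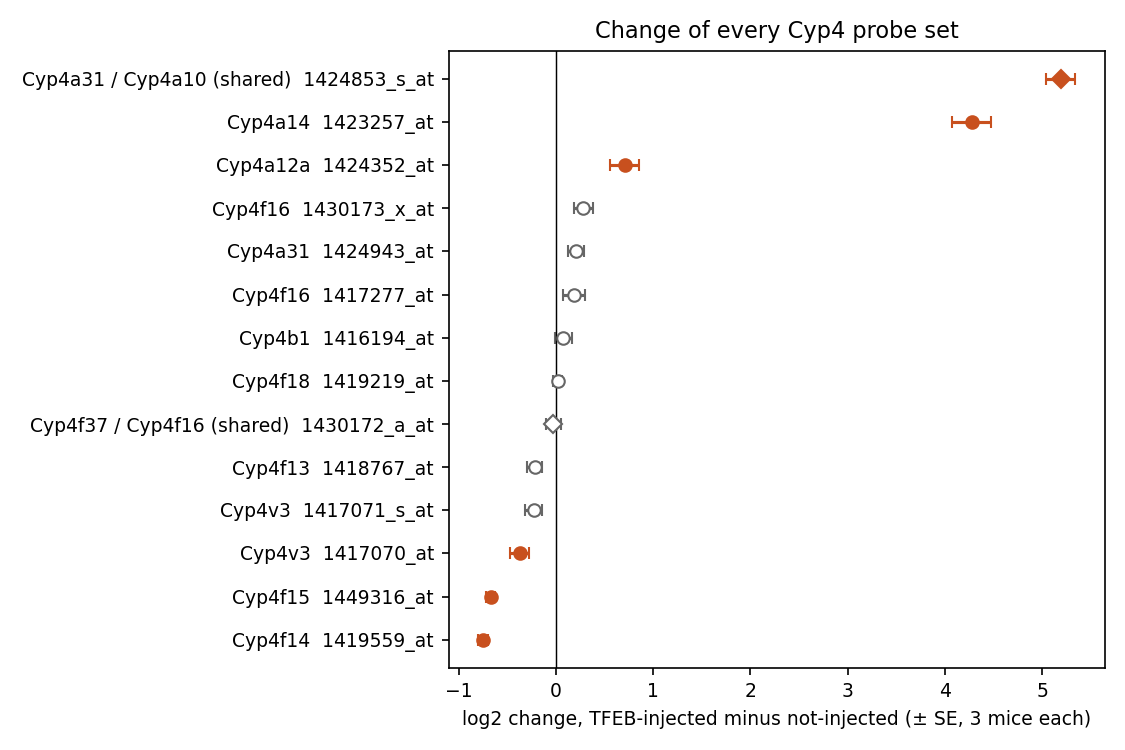
Log2 change (injected minus not-injected, ± SE, 3 mice each) of the 14 probe sets annotated to Cyp4 genes, in limma over all 22626 probe sets; filled orange points passed an adjusted p of 0.05 and diamonds are probe sets shared by 2 genes. The shared Cyp4a31 and Cyp4a10 set (5.19) and Cyp4a14 (4.27) stand apart from all others, which lie between -0.75 and 0.71.

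Among Cyp4f genes, Cyp4f14, for the leukotriene B4 omega-hydroxylase of mouse liver, showed the clearest fall. It was at 11.73, 11.76 and 11.78 in not-injected and at 11.03, 11.04 and 10.96 in injected livers. The 2 sets of values were tight and well separated. The gene fell by 0.75 ± 0.05 on the log2 scale (SE; 1.68-fold lower; adjusted p = 1.40e-04).

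Cyp4f15, a related hydroxylase from the same chromosomal cluster, was at 10.04, 10.01 and 10.13 in not-injected and 9.37, 9.39 and 9.41 in injected livers. It fell by 0.67 ± 0.05 (SE; 1.59-fold lower; adjusted p = 2.37e-04), again with no overlap. Cyp4f13, the third Cyp4f member, was at 8.63, 8.53 and 8.71 and then at 8.43, 8.53 and 8.28. Its groups were separated by less than 0.01, and its change of -0.22 ± 0.08 (SE; adjusted p = 0.101) did not pass.

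The 250 bases before the start of the 3 Cyp4f members are shown because these genes lie in 1 cluster on chromosome 17 and their changes were all negative. The sequences are RefSeq's, build GRCm38.p6, written 5′ to 3′ on the gene's strand; for Cyp4f14, which has 4 listed starts, 1 of the 3 whose window holds the word is shown. Capitals mark GGATTGG, a word chosen after the sequences had been seen.
Cyp4f14 (chr17:32917330-32917579, minus strand): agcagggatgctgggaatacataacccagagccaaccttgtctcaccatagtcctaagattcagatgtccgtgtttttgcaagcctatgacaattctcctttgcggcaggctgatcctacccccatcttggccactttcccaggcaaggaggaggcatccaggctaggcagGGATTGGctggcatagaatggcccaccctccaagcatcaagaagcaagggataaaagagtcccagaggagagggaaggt
Cyp4f15 (chr17:32685409-32685658, plus strand): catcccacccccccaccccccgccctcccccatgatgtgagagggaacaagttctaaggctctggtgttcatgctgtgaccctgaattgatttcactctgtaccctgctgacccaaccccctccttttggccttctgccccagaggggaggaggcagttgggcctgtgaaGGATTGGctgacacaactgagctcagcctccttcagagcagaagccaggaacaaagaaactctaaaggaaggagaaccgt
Cyp4f13 (chr17:32947362-32947611, minus strand): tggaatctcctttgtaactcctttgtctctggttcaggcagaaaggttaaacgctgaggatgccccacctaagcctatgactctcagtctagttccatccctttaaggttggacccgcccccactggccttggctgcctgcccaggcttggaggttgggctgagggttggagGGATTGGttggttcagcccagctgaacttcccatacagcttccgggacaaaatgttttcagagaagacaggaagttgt
The word GGATTGG, searched on both strands, occurred once in each of these windows, on the strand of the gene, beginning 79, 80 and 78 bases before the start. From the other listed starts of Cyp4f14 it began 66 and 52 bases before the start in 2 windows and was absent from 1, so the like distances depend on the start shown. It was found in 4.17% of all 32851 promoter windows of this length. Cyp4f18, which showed no call, had it too, whereas the window of Cyp4f16 did not.

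Cyp4v3, the mouse counterpart of the human retinal dystrophy gene CYP4V2, was at 13.02, 13.02 and 13.04 in not-injected and at 12.96, 12.83 and 12.61 in injected livers. All injected values were lower, but they spread by a SD of 0.18 against 0.01 in controls, and the change was -0.23 ± 0.09 (SE; adjusted p = 0.115). This lead probe set passed without injected replicate 1 (-0.31; adjusted p = 0.0330). Its second probe set went from 11.99, 11.99 and 12.01 to 11.82, 11.67 and 11.40, a change of -0.37 ± 0.10 with an adjusted p of 0.0446 over all 22626 probe sets. The probe sets had the same sign and the same order of injected mice, and stood on different sides of the threshold.

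The window before Cyp4v3 is shown for the word in capitals, CACGTG, the core that TFEB and related factors bind.
Cyp4v3 (chr8:45333164-45333413, minus strand): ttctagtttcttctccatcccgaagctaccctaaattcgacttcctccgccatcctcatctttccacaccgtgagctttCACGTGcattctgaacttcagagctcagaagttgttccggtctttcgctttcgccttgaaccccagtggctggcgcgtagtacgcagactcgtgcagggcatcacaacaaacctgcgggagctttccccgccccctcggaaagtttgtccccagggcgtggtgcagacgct
CACGTG, whose reverse complement is the same word, occurred once, beginning 171 bases before the start. It was found in 6.02% of all windows and in none of those listed for Cyp4b1, Cyp4f13, Cyp4f14 or Cyp4f15. The longer word TCACGTGA (0.785% of windows), which contains CACGTG, and on both strands AGGTCA (14.0%) and its DR1 repeat, 2 copies with 1 base between them and 1 position of each copy left free (0.338%), were in none of the windows of these 5 members. The table used here held windows for those 5 of the 8 members; Cyp4a12a, Cyp4a14 and Cyp4a31 are the others.

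Cyp4b1, for a P450 best known for activating lung toxins, was at 9.10, 9.21 and 9.10 in not-injected and 9.35, 9.27 and 9.02 in injected livers. The groups overlapped, and the change was 0.08 ± 0.09 (SE; 95% interval -0.13 to 0.28; adjusted p = 0.611). In GRCm38.p6 gene order, Cyp4b1 closes the cluster on chromosome 4 that also holds Cyp4a12a, Cyp4a14, Cyp4a10 and Cyp4a31, so members in 1 cluster had changes from 0.08 to 4.27, and the probe set shared by Cyp4a10 and Cyp4a31 changed by 5.19.

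The mean change of the 3 Cyp4a members was 1.73 and that of the 3 Cyp4f members and Cyp4v3 was -0.47, a difference of 2.20. By injected mouse the difference was 2.08, 2.19 and 2.32, and by not-injected mouse -0.10 to 0.06 around their own mean. Every injected liver was thus shifted toward Cyp4a, and the animals differed little in the size of that mean shift. Single genes were less even, and 2 Cyp4a members ran in opposite order. Over injected replicates 1, 2 and 3 Cyp4a14 was shifted by 3.90, 4.30 and 4.63 and Cyp4a12a by 1.00, 0.78 and 0.35. Most of the mean shift came from 1 gene: with Cyp4a14 left out the difference was 0.92. With the shared Cyp4a10 and Cyp4a31 probe set in place of the dim Cyp4a31 one the difference was 3.86. No p is given for these means, since the genes were chosen with results of these arrays known.

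The change of Cyp4a14 exceeded that of each of the other 7 members by 3.57 (Cyp4a12a) to 5.02 (Cyp4f14) log2 units. Cyp4a14 is singled out here for its size, and an exact permutation test of 3 against 3 mice cannot give a p under 0.1, so no test of these differences is given.

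The injected mice did not rank alike across the family. Injected replicate 3 had the largest shift in Cyp4a14 (4.63 above the not-injected mean, against 3.90 and 4.30) and in the shared probe set (5.49 against 4.86 and 5.22). The same mouse had the smallest rise in Cyp4a12a (0.35 against 1.00 and 0.78) and the lowest Cyp4v3 (-0.42 against -0.07 and -0.20). Cyp4f14 and Cyp4f15 varied less between the mice, from -0.80 to -0.72 and from -0.69 to -0.65. With 3 mice these orders are a description only.

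**Figure D3:**
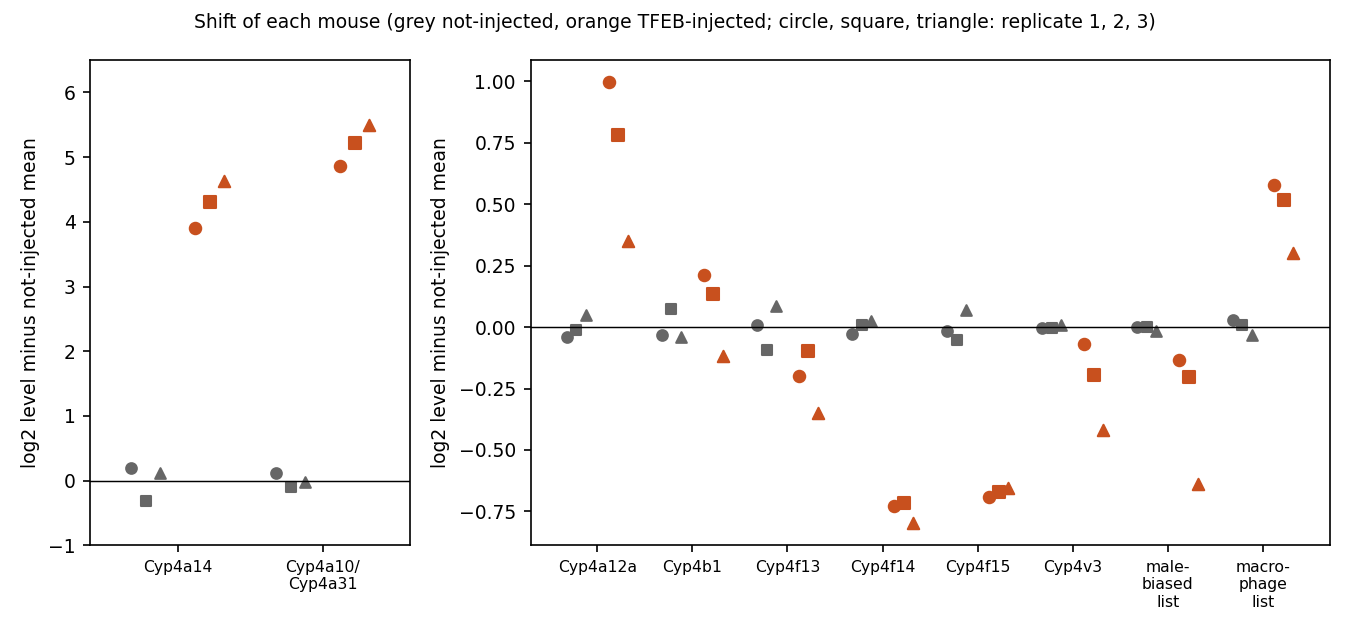
Log2 level of each mouse minus the mean of the not-injected mice, for Cyp4a14 and the shared Cyp4a10 and Cyp4a31 probe set (left, wider scale) and for other members and the medians of the male-biased and macrophage gene lists (right); grey is not-injected, orange TFEB-injected, and shapes are replicates 1, 2 and 3. The triangle (injected replicate 3) is the highest of the injected mice at left and the lowest of them for Cyp4a12a (0.35), Cyp4v3 (-0.42) and the male-biased list (-0.64).

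Since Cyp4a12a is a male-typical gene, sex-dependent genes were measured beside it. Of 5 measured sex chromosome genes 0 rose and 2 fell, both Y-linked and named after their values were seen. Kdm5d, for a histone demethylase, went from 7.94, 7.92 and 7.93 to 7.67, 7.67 and 7.63 (-0.27 ± 0.04 SE; adjusted p = 0.00483). Zfy2, for a zinc finger protein, went from 5.09, 5.20 and 5.46 to 4.77, 4.95 and 4.85 (-0.40 ± 0.10 SE; adjusted p = 0.0319). With the mean of its probe sets Kdm5d was at -0.11 and lost its call (adjusted p = 0.214), and Zfy2 lost it without any 1 array but not-injected replicate 1 (adjusted p up to 0.0802). Y-linked Eif2s3y (-0.11 ± 0.05) was lower in all 3 injected livers without a call, and the ranges of Y-linked Uty (-0.02 ± 0.05) and of Xist (-0.12 ± 0.06) overlapped. In level, Eif2s3y read high, at 10.33 to 10.43 in not-injected and 10.23 to 10.28 in injected livers (percentile 87.4 of all genes). Xist read 5.85 to 5.95 and 5.71 to 5.89 (percentile 25.8). By these 2 genes both groups read as male. Over all 12393 genes, 3894 had an unadjusted p under 0.05 in limma. Of 13 measured male-biased liver genes 0 rose and 6 fell in limma (8 had an unadjusted p under 0.05), with a median of -0.26, so that Cyp4a12a moved against that list. The list's median shift was -0.13, -0.20 and -0.64 in injected replicates 1, 2 and 3, and replicate 3 was also the one with the smallest Cyp4a12a rise. Of 13 measured female-biased liver genes 0 rose and 2 fell in limma (3 had an unadjusted p under 0.05), with a median of -0.01. The part of sex-dependent regulation in the Cyp4a12a value was not tested.

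The remaining Cyp4 genes with a probe set of their own showed no call in the fit of 1 probe set a gene. Cyp4f16, of the same cluster as the other Cyp4f genes, was at 5.87, 6.26 and 5.94 in not-injected and 6.15, 6.15 and 6.34 in injected livers (0.19 ± 0.11 SE; adjusted p = 0.292). A second probe set for it gave 0.28, and a set shared by Cyp4f37 and Cyp4f16 gave -0.03, neither past the threshold. With the mean of its own probe sets Cyp4f16 passed (0.23; adjusted p = 0.0203). Cyp4f18, the leukotriene-oxidising enzyme of neutrophils, stayed within 4.63 to 4.70 in all 6 livers (0.02 ± 0.04 SE; adjusted p = 0.791), in a dim range where a change could go unseen.

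The 3 genes taken by the smallest root mean square difference over the 6 arrays from Cyp4a14 were Cyp46a1, for cholesterol 24-hydroxylase (0.36 log2 units), Gpx3, for a secreted glutathione peroxidase (0.40), and Vnn1, for a pantetheinase (0.54). They ranked 4, 2 and 1 among the rises of all genes, beside rank 3 for Cyp4a14. A measure of this kind favours genes with a rise of like size. Cyp46a1 went from 6.25, 6.31 and 6.04 to 9.83, 10.02 and 10.37. Gpx3 went from 7.03, 6.83 and 6.88 to 11.28, 11.75 and 12.13. Vnn1 went from 5.77, 5.58 and 5.99 to 10.60, 10.80 and 10.98. In all 3, as for Cyp4a14, injected replicate 1 was the lowest and replicate 3 the highest of the injected mice, an order that the choice by likeness favours.

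The measured electron donors of P450 enzymes and the later steps of omega oxidation did not follow Cyp4a14. Of 6 measured electron donors 0 rose and 0 fell in limma (0 had an unadjusted p under 0.05), with a median of 0.02. All 6 are cytochrome b5 or cytochrome b5 reductase genes, and Por, for cytochrome P450 reductase, was not measured. The smallest p was that of the cytochrome b5 reductase gene Cyb5r4 (0.11 ± 0.05 SE; adjusted p = 0.163). Of 11 alcohol and aldehyde dehydrogenase genes 1 rose and 3 fell, with a median of -0.02. Adh4, for an alcohol dehydrogenase that accepts long-chain omega-hydroxy fatty acids, went from 11.78, 11.75 and 11.82 to 10.93, 10.90 and 10.74, a fall of 0.92 ± 0.06 (SE; adjusted p = 1.55e-04). The aldehyde dehydrogenase genes Aldh1a1 (-0.35 ± 0.05) and, named after its value was seen, Aldh2 (-0.22 ± 0.05) fell, and Aldh1b1 rose (0.56 ± 0.04). Aldh3a2, for the fatty aldehyde dehydrogenase of this route and also named after its value was seen, changed by 0.00 (adjusted p = 0.988). The Aldh2 call was lost without any 1 of the not-injected arrays or injected replicate 2 (adjusted p up to 0.0741).

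Of 20 genes listed for import, activation and shortening of dicarboxylic acids in peroxisomes, 3 rose and 5 fell, with a median of -0.04. Whether each product acts in peroxisomes was not tested. The thiolase gene Acaa1b rose from 13.03, 13.06 and 13.07 to 13.57, 13.56 and 13.55 (0.50 ± 0.04 SE), and Crot, for carnitine octanoyltransferase, rose by 0.36 ± 0.05. Acox2, for the branched-chain acyl-CoA oxidase, fell from 11.53, 11.54 and 11.52 to 10.86 in all 3 injected mice (-0.67 ± 0.04 SE), and the thioesterase gene Acot3 fell (-0.48 ± 0.08). The other calls, named after their values were seen, were smaller: the acyl-CoA synthetase gene Slc27a2 (0.19 ± 0.04), the peroxisomal transporter gene Abcd3 (-0.31 ± 0.06), the bifunctional enzyme gene Ehhadh (-0.20 ± 0.05) and the thioesterase gene Acot12 (-0.17 ± 0.05). Acot12 lost its call without any 1 of the 6 arrays, Ehhadh without any but injected replicate 1 and Slc27a2 without any but injected replicate 3 (adjusted p up to 0.138, 0.126 and 0.0941), and 3 falls were left without not-injected replicate 1 or 3 or injected replicate 2 or 3.

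Cyp4 enzymes share arachidonic acid with P450 epoxygenases, whose genes also split. Of 13 epoxygenase and epoxide hydrolase genes 2 rose and 4 fell, with a median of -0.15. Cyp2j6 went from 9.15, 9.28 and 9.22 to 9.89, 10.16 and 10.44 (0.95 ± 0.13 SE) and Cyp2j9 rose by 0.72 ± 0.15. Cyp2c70 (-0.61 ± 0.09), best known as the muricholic acid-forming enzyme, and Cyp2c54 (-0.53 ± 0.05) fell, as did Cyp2c55 (-0.55 ± 0.09) and Cyp2c50 (-0.18 ± 0.04), both singled out with their values known. Omitting not-injected replicate 2 or 3 ended the Cyp2j9 call (adjusted p = 0.0587 and 0.0579), which left 1 rise, and the Cyp2c50 call ended without any 1 of the not-injected arrays or injected replicate 2 (adjusted p up to 0.103). Cyp2c genes are close relatives, and probe sets may detect more than 1 of them.

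Of 18 genes that release arachidonic acid or make and break down leukotrienes and prostaglandins, 3 rose and 1 fell, with a median of 0.01. The shares over all genes were 9.99% for rises and 7.92% for falls. The phospholipase gene Pla2g12a rose from 7.82 ± 0.08 to 8.94 ± 0.07 (SD, n = 3; change 1.12 ± 0.06 SE; limma adjusted p = 7.96e-05). Ptgr1, for a reductase that inactivates prostaglandins and leukotriene B4, rose (0.52 ± 0.10), and the phospholipase gene Pla2g6 fell (-0.36 ± 0.10). Pla2g4a, a cytosolic phospholipase gene named after its value was seen, rose (0.35 ± 0.08). The last 3 rest on few arrays. Ptgr1 did not pass with either replicate 2 omitted, which left 1 rise, Pla2g6 without any not-injected array or injected replicate 2, which left 0 falls, and Pla2g4a without any array but injected replicate 3 (adjusted p up to 0.0524, 0.119 and 0.0925). Without injected replicate 3 the list had 2 falls.

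A further list, the receptor list, held 23 measured genes for nuclear receptors, coregulators and other transcription factors. In it 3 rose and 2 fell, with a median of 0.01, where 9.99% of all genes rose and 7.92% fell. Whether each of them acts on Cyp4 genes in these livers was not tested. Ppargc1a, for the coactivator PGC-1alpha, went from 7.43, 7.44 and 7.46 to 8.93, 9.73 and 10.42 (2.25 ± 0.32 SE; adjusted p = 0.00330). As for Cyp4a14, injected replicate 3 was highest and replicate 1 lowest. Esrra, for an orphan receptor partnered by PGC-1alpha, rose by 0.38 ± 0.06, and Pparg, for the adipogenic relative of PPAR-alpha, named after its value was seen, rose from 6.86, 6.92 and 7.05 to 7.28, 7.88 and 8.23 (0.86 ± 0.21). The hepatocyte transcription factor gene Onecut1 fell by 1.76 ± 0.05, and Nr1i3, for the xenobiotic receptor CAR, by 0.27 ± 0.06. Without any 1 of the not-injected arrays or injected replicate 2 the calls of Pparg and Nr1i3 were lost (adjusted p up to 0.106 and 0.0699), which left 1 fall; without injected replicate 3 there were 6 rises.

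**Figure D4:**
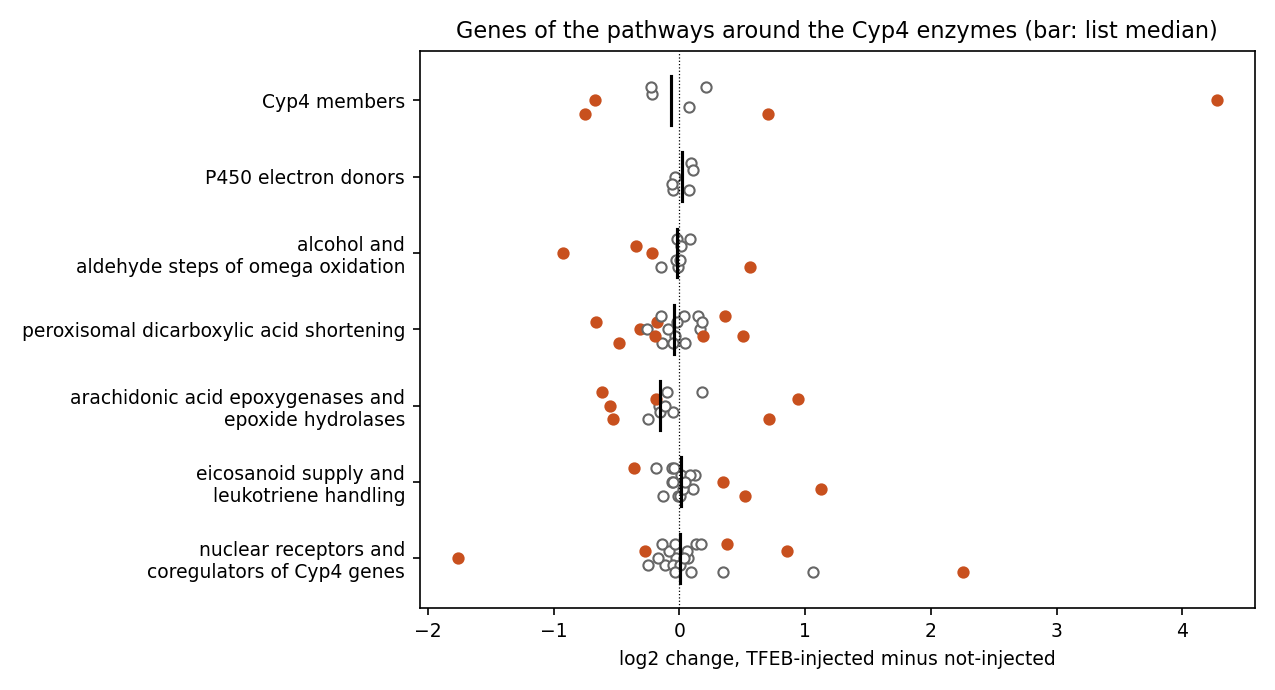
Log2 change (injected minus not-injected) of each measured gene of the Cyp4 group and of 6 gene lists around it; each point is 1 gene, orange if its adjusted p was under 0.05, and black bars are list medians. Cyp4a14 at 4.27 lies beyond every gene of the 6 lists, whose medians run from -0.15 to 0.02.

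Markers of other cells were set beside these values. For comparison, 9.99% of all genes rose, 7.92% fell, and 3894 of 12393 had an unadjusted p under 0.05 in limma. Of 14 macrophage and Kupffer cell markers 10 rose and 0 fell, with a median of 0.47, and their summed level on the log2 scale was 13.06 to 13.11 in not-injected and 13.45 to 13.73 in injected livers; its part in the Cyp4 values was not tested. Markers of kidney tubule, where Cyp4a14 and Cyp4b1 are also expressed, were not higher in the injected livers. Of 12 such markers 0 rose and 1 fell in limma (2 had an unadjusted p under 0.05), with summed levels of 9.72 to 9.80 and 9.69 to 9.73. Lung and airway markers (9 measured, 0 rose, 1 fell; 4 had an unadjusted p under 0.05) had summed levels of 9.36 to 9.41 and 9.18 to 9.26, and adipocyte and muscle markers (10 measured, 0 rose, 2 fell; 3 had an unadjusted p under 0.05) 8.75 to 8.84 and 8.66 to 8.70. Neutrophil markers, set beside Cyp4f18, numbered 10, of which 1 rose and 0 fell, with summed levels of 9.07 to 9.15 and 9.04 to 9.15. All 9 measured hepatocyte markers stayed without a call (1 had an unadjusted p under 0.05), at 17.60 to 17.61 and 17.57 to 17.61.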

How the data were processed

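Liver RNA of 6 mice was measured on 6 Affymetrix-labelled arrays, 1 mouse each, grouped by sample title. The deposited log2 values were made by the authors with RMA in the affy package, per the submitters' processing notes (versions not given in the sources used here). RMA sets all arrays to 1 distribution, which hides overall shifts in RNA content and understates changes of dim genes. Of 22690 probe sets, 64 controls were left out, and 20380 with 1 gene symbol in the platform annotation gave 12393 genes, each by its brightest probe set. Probe sets with several symbols were tested only in a fit of all 22626.

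The groups were compared with limma 3.58.1 (lmFit, eBayes) in R 4.3.3, tested on simulated data. Replicate numbers are not stated to pair the mice, and the main fit used no pairing. Deviations of like-numbered mice correlated at 0.01, -0.13 and -0.11, values that cannot exclude a pairing. The members and lists were chosen with earlier results of these data known. Named were all measured Cyp4 genes, Tfeb, Ppara, the 2 called genes of lowest p for each direction and pathway list (where none was called, the 1 of lowest p) and the 3 genes most like Cyp4a14. Promoter windows came from RefSeq tables; figures were drawn with matplotlib 3.10.9. Nothing in the labels says whether cages or days differed between groups.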

Additional observations from a re-analysis of the deposited data

How the results depend on the processing

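Across 135 values of the 8 members under the alternatives 126 kept direction and side of the threshold and 0 changed direction with a call; Cyp4a14, Cyp4f13, Cyp4f14 and Cyp4f15 kept theirs in all of theirs. Of 673 values of 40 other named genes 74 lost a call, 4 gained one and 0 reversed with a call. Tfeb (-0.09 to 0.10) and Uty (-0.06 to 0.05) had both signs over the alternatives, without a call. With 1 array left out, Cyp4a12a was 0.56 to 0.89, Cyp4v3 -0.31 to -0.13 and Cyp4 rises 1 to 2, and over all genes 722 to 1344 rose and 507 to 1065 fell. In the same fits rises and falls were 2 to 4 and 3 to 4 (peroxisomal), 1 to 3 and 3 to 5 (epoxygenase), 1 to 3 and 0 to 2 (eicosanoid) and 2 to 6 and 1 to 3 (receptors). Without _x_at and _s_at probe sets Cyp4v3 fell by 0.37. Leaving out genes under the median level, which removes Cyp4a31, made Cyp4a minus Cyp4f and Cyp4v 2.96, with 5 peroxisomal rises and 4 receptor falls; an intensity trend with a robust prior also gave 4 receptor falls.

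Array weights put a weight of 16.3 on injected replicate 2 and 0.24 to 1.19 on the others, and their estimation stopped before convergence. They gave calls for Cyp4a31 (0.23), Cyp4b1 (0.14) and Cyp4v3 (-0.20), 4 Cyp4 rises, 2717 rises and 3137 falls over all genes, 1 rise and 1 fall among electron donors, 6 peroxisomal rises, 9 epoxygenase falls, 3 eicosanoid falls and 6 rises and 6 falls among receptors. With the replicate block, which left fewer degrees of freedom, 923 genes rose and 610 fell, with 3 peroxisomal and 0 eicosanoid falls; 0 of 6 arrays correlated best with their own number, and no member's call changed.

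At an adjusted p of 0.01, Cyp4a12a (0.71) lost its call, leaving 1 Cyp4 rise, 645 genes rose and 408 fell, with 1 epoxygenase and 1 eicosanoid rise and 2 peroxisomal, 0 eicosanoid and 1 receptor falls. At 0.10, 1472 genes fell, with 5 peroxisomal rises and 2 eicosanoid and 4 receptor falls. Alternatives chosen after seeing the data moved Cyp4a minus Cyp4f and Cyp4v to 0.92 (Cyp4a14 left out) and 3.86 (shared probe set in place of that of Cyp4a31), the latter with 3 Cyp4 rises. Signals near the bottom of the scale, as for Cyp4a31 and Cyp4f18, limit what could be detected.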

Other observations

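Genes next to the Cyp4 clusters, taken as the 2 nearest measured genes on each side in GRCm38.p6 gene order, gave a measure of the surroundings. Around the chromosome 4 cluster of Cyp4a and Cyp4b1 genes, Tal1 (-0.02 ± 0.06 SE), Pdzk1ip1 (-0.04 ± 0.12), Efcab14 (-0.02 ± 0.05) and Mknk1 (0.12 ± 0.08) showed no call in limma (adjusted p from 0.380 to 0.875), so the rise of Cyp4a14 stood between flanking genes without a call. Around the chromosome 17 cluster of Cyp4f genes, Pglyrp2, for a peptidoglycan amidase made by liver, rose (0.24 ± 0.06; adjusted p = 0.0284), and Rasal3 (0.07 ± 0.08), Zfp472 (-0.02 ± 0.09) and Zfp955a (-0.08 ± 0.06) showed no call. The zinc finger gene Zfp871, between Cyp4f15 and Cyp4f14, rose by 0.33 ± 0.05 (adjusted p = 0.00471), against the falls of both. Beside Cyp4v3 on chromosome 8, Klkb1, for plasma prekallikrein, fell (-0.37 ± 0.04; adjusted p = 0.00134) and Tlr3 rose (0.22 ± 0.06; adjusted p = 0.0377), while F11 (-0.05 ± 0.06) and Pdlim3 (-0.03 ± 0.07) showed no call.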
